A study of Mus musculus with 6 samples.

Results

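The genes described here are 40 genes of mitosis, the spindle and cytokinesis, measured by RNA-seq in 4T1 cells, a mouse mammary carcinoma line grown in culture. They were chosen by name for their textbook roles, but with earlier results of these data known. All 40 were found by Ensembl gene identifier among the 23644 genes of the expression table. The study asked how the transcriptome of 4T1 cells changes when Carmil3, a gene of the CARMIL family of actin capping protein regulators, is knocked out. There were 3 libraries of control 4T1 cells, labelled wild type, and 3 libraries of Carmil3 knockout cells, which were clones grown from single cells. Both groups were kept in serum-containing DMEM with penicillin and streptomycin, and no other treatment is given. The sources used here do not say by which method Carmil3 was disrupted, nor from how many clones, or from which of them, the knockout libraries were made. Effects of losing Carmil3 and differences that came with the single-cell clones therefore cannot be told apart here. Nothing in the labels says that the replicates of a group were separate cultures, so p-values measure the spread between these libraries, which may be technical.

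A cell enters mitosis when cyclin B and cyclin A activate the kinase Cdk1, after which the chromosomes condense and microtubules build the spindle. Kinetochores, assembled on centromeres, attach each chromosome to spindle microtubules, and the spindle checkpoint holds the anaphase-promoting complex inactive until all are attached. Separase then cuts the rings that hold sister chromatids together, and the central spindle and a contractile ring divide the cell. Transcription of most of these genes peaks in the G2 phase and in mitosis, so in a culture their RNA is widely used as a sign of proliferation. In RNA from a whole culture, more cells in mitosis and more RNA per mitotic cell cannot be told apart.

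The targeted gene could not be used to check the labels. Carmil3 was listed at 0.036, 0.025 and 0.012 FPKM (fragments per kilobase of exon, scaled to the library's size) in the control libraries and at 0, 0.012 and 0.024 FPKM in the knockout libraries, so the groups overlapped at a level near 0. Library totals, as recovered from the steps of the low FPKM values, were 17779132 to 19046809 reads, which put 878 to 45298 reads on each of the 40 genes in each library. Knockout replicate 3 stood apart from the other knockout libraries: over genes with at least 200 reads, chi-square per degree of freedom was 19 and 17.6 against replicates 1 and 2, which differed from each other by 3.02. Among controls it was highest between replicates 2 and 3, at 10.5. The 5 epithelial markers summed to 983 to 1070 FPKM in control and 427 to 471 FPKM in knockout libraries. Most of that was Krt8 and Krt18, while Epcam was at 19.6 to 19.7 FPKM in control and 0.027 to 0.132 FPKM in knockout cells and Krt14 was listed at 0 in 2 knockout libraries. Of the other lists, the fibroblast markers (3 of 5 in the table) summed to 11.4 to 12 against 17.8 to 18.3 FPKM, of which Pdgfra, at 9.96 to 10.2 against 17.4 to 17.9 FPKM, made up most. Col1a1 went the other way, at 1.36 to 1.74 against 0.252 to 0.296 FPKM, and Dcn reached at most 0.161 FPKM. Leukocyte markers (4 of 6) reached at most 0.139 and endothelial markers (4 of 5) at most 0.0684 FPKM in any library. The part of the marker differences in the results that follow was not tested.

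Mitotic gene expression was modestly higher in the knockout libraries. The 40 genes summed to 1977, 2023 and 1968 FPKM in the control libraries and to 2263, 2289 and 2234 FPKM in the knockout libraries, or 0.675 to 0.706% against 0.733 to 0.791% of all FPKM in a library. All knockout libraries lay above all control libraries in both measures. By limma on log2(FPKM + 1), with Benjamini-Hochberg adjustment over the 11171 genes tested and a threshold of 0.05, 14 of the 40 genes (35%) were higher in knockout cells, none was lower and 26 did not pass. Among all genes tested, 16.9% were called higher and 18.7% were called lower. The 40 genes were chosen with earlier results of these data known, and these shares were not tested against each other. Counted over the 3614 tested genes within the range of mean levels of the mitotic genes, 14.5 to 234 FPKM, 19.5% were called higher. At an unadjusted p under 0.05, 21 of the 40 were higher and 1 was lower, against 22.3% and 23.8% of all genes. On the recovered reads, limma-voom called 19 higher and 1 lower, against 18.4% and 20.1% of all genes.

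The changes were small. Across the 40 genes the log2 change ran from -0.15 (Nuf2) to 0.70 (Ckap2l) with a median of 0.17, against a median of -0.01 over all genes tested, and 36 of the 40 lay above 0. For 22 genes every knockout library was above every control library, a pattern found in 24.2% of all genes tested, and for 1 gene, Nuf2, every knockout library was below, a pattern found in 26.4%. Knockout replicates 2 and 3 each held the highest value of 14 genes and knockout replicate 1 that of 8, whereas control replicate 2 held the highest value of 4 genes. The lowest value fell in control replicate 3 for 19 genes, in control replicate 2 for 11 and in a knockout library for 4 (3 in replicate 3). With control replicate 1 left out, 8 of the 40 and 10.6% of all genes were called higher, and with knockout replicate 3 left out, 18 of the 40 and 18.3% of all genes were. The plot of the genes by library shows this spread gene by gene.

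**Figure D1:**
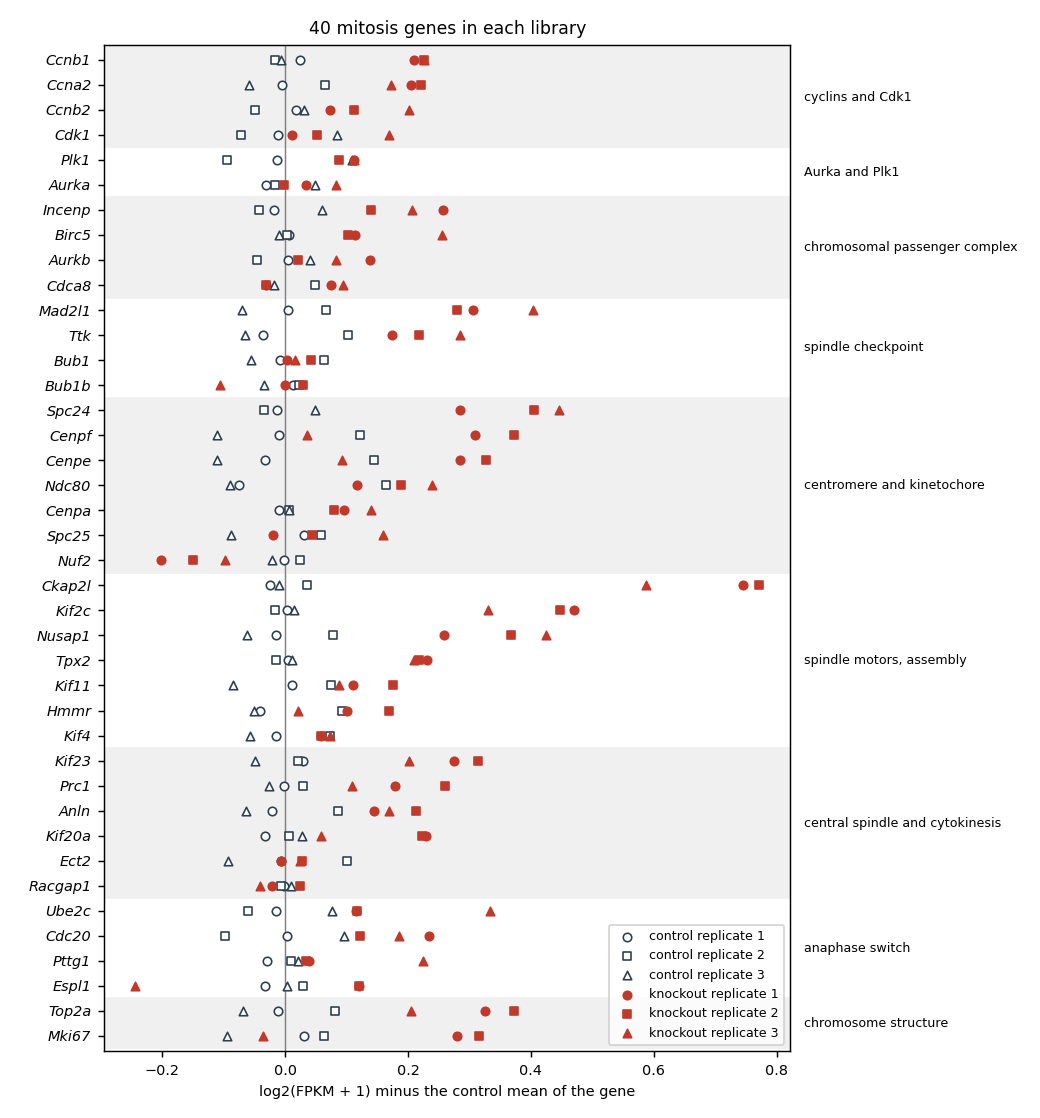
Level of each of the 40 genes in each library, as log2(FPKM + 1) minus the mean of the 3 control libraries for that gene (x axis), grouped by role (rows). Open symbols are control and filled red symbols knockout libraries, and most filled symbols lie to the right of 0, with Ckap2l farthest right and Nuf2 to the left.

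The counts by role that follow rest on 2 to 7 genes each, and none was tested against the 16.9% of all genes called higher. Of 7 spindle motors and assembly factors 4 rose, with a median log2 change of 0.22 over the 7, and Ckap2l and Kif2c among them had the largest changes of the 40 genes. Ckap2l (ENSMUSG00000048327, chr2:129268210-129297212 on the minus strand in mm10), a microtubule-binding protein of the spindle, was at 56.2, 58.7 and 56.8 FPKM in control and 96.6, 98.4 and 86.5 FPKM in knockout libraries. The groups were far apart, with the lowest knockout library, replicate 3, well above the highest control. Its mean rose from 57.2 ± 1.29 to 93.8 ± 6.44 FPKM (SD, n = 3 each), a ratio of 1.64 and a log2 change of 0.70 (SE 0.062, adjusted p = 6.17e-05). Kif2c, a kinesin that takes microtubules apart at their ends and corrects faulty attachments at the centromere, was at 22.5, 22.2 and 22.7 FPKM in control and 31.5, 31.0 and 28.5 FPKM in knockout libraries. Control values were nearly equal and all knockout values were higher, for a log2 change of 0.42 (SE 0.055, adjusted p = 0.000629). Nusap1, which bundles spindle microtubules around the chromosomes, was at 35.6, 38.0 and 34.4 FPKM against 43.2, 46.7 and 48.6 FPKM. The groups did not overlap and the log2 change was 0.35 (SE 0.063, adjusted p = 0.00325). Nusap1 shares 172 exon bases with Oip5 on the opposite strand, itself at a mean of 20.3 FPKM and also called higher (log2 change 0.29). The sources used here do not give the strand setting of the counting, so reads from such shared bases cannot be assigned. In all, 11 of the 40 genes share exon bases with another gene, 10 of them only on the opposite strand. Among the 14 that rose these are Nusap1, Ckap2l (181 bases with Gm14024), Ccna2 (510 with Exosc9, at 7.59 FPKM), Prc1 (911 with Rccd1, at 0.577 FPKM) and, on the same strand, Top2a (122 with Gm23451). Tpx2, which activates Aurora A kinase and starts microtubules near chromosomes, was at 69.3, 68.4 and 69.6 FPKM in control and 81.3, 80.5 and 80.1 FPKM in knockout libraries. Both groups were tight and separate, so that a log2 change of only 0.22 (SE 0.047) passed with an adjusted p of 0.00747.

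The other spindle genes did not pass. Kif11, the motor that pushes the spindle poles apart, was at 58.9, 61.6 and 55.1 FPKM in control and 63.2, 66.2 and 62.2 FPKM in knockout libraries, which separated the groups narrowly at a log2 change of 0.12 (95% interval -0.01 to 0.26, adjusted p = 0.128). Hmmr, a hyaluronan receptor that also binds spindle microtubules, had a log2 change of 0.10 (-0.04 to 0.24) at 43.7 ± 2.52 against 46.8 ± 2.41 FPKM. Kif4, a motor of chromosome arms and the central spindle, had one of 0.06 (-0.06 to 0.19), and its knockout values, 17.2, 17.2 and 17.4 FPKM, lay at the upper end of the control range of 15.8 to 17.4 FPKM.

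**Figure D2:**
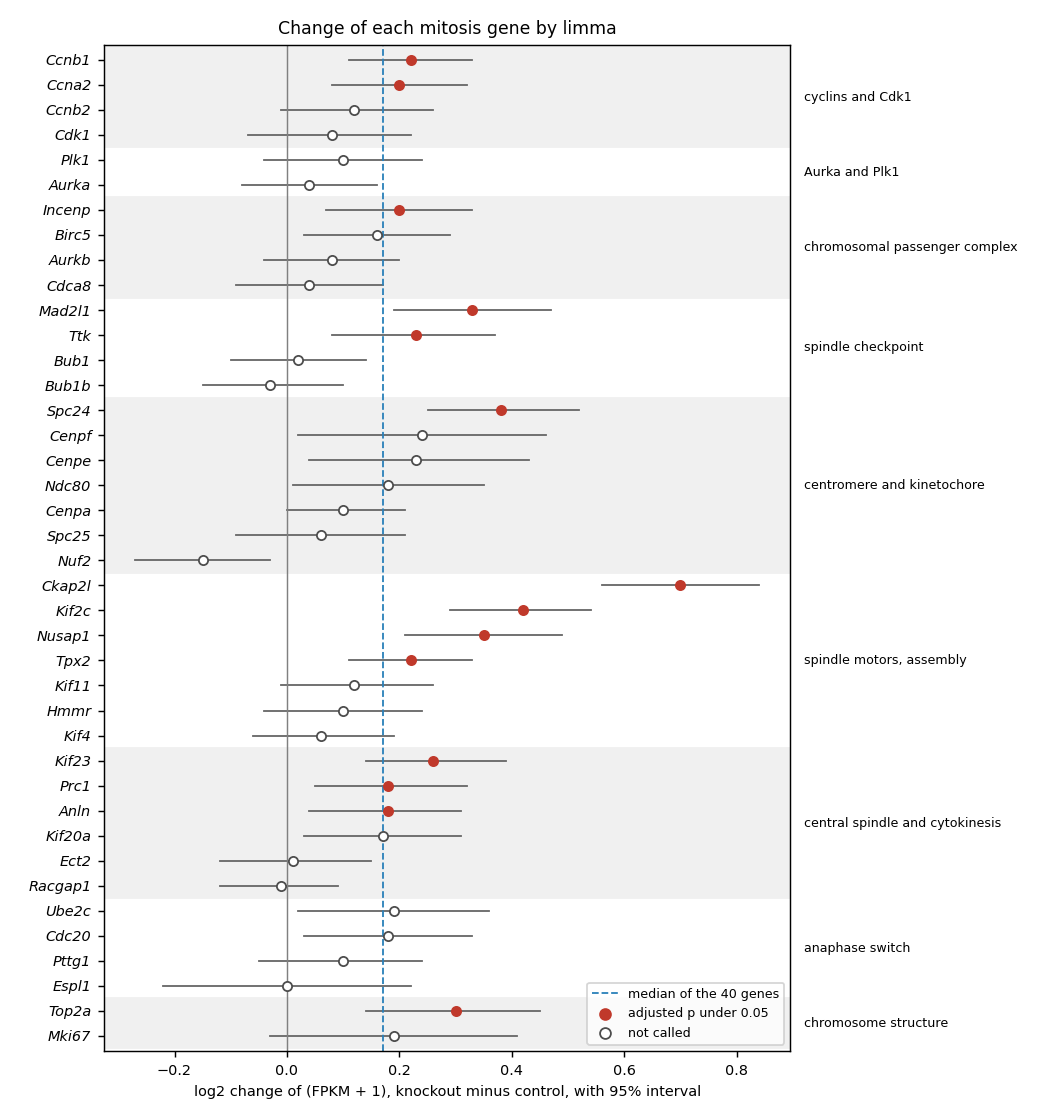
Log2 change of (FPKM + 1), knockout minus control (x axis), for each of the 40 genes by role (rows), with bars for the 95% interval from limma. The 14 filled points passed an adjusted p of 0.05, and the dashed line marks the median of 0.17.

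Of the 4 cyclin and Cdk1 genes, whose products start mitosis, Ccnb1 and Ccna2 rose and Ccnb2 and Cdk1 did not pass. Ccnb1, cyclin B1, was at 52.9, 51.4 and 51.8 FPKM in control and 60.3, 61.0 and 61.0 FPKM in knockout libraries. Both groups were narrow and separate, and the mean rose from 52 ± 0.781 to 60.8 ± 0.38 FPKM (SD, n = 3 each), a log2 change of 0.22 (SE 0.046, adjusted p = 0.00696). Ccna2, cyclin A2, was at 74.8, 78.6 and 72.0 FPKM in control and 86.7, 87.7 and 84.7 FPKM in knockout libraries. Its groups did not overlap and the log2 change was 0.20 (SE 0.054, adjusted p = 0.0208), but leaving out control replicate 1 or 3, or knockout replicate 1 or 2, gave adjusted p = 0.0913, 0.0663, 0.0624 and 0.0748. Ccnb2, cyclin B2, with the second highest level of the 40 genes, was at 102, 97.4 and 103 FPKM against 106, 109 and 116 FPKM. These groups were separate too, yet the log2 change of 0.12 (95% interval -0.01 to 0.26) did not pass (adjusted p = 0.126). Cdk1 had a log2 change of 0.08 (-0.07 to 0.22), with 35.7 to 39.9 FPKM in control and 37.9 to 42.4 FPKM in knockout libraries. Neither of the kinases that work beside Cdk1 passed. Plk1, which acts at centrosomes, kinetochores and the midbody, was at 50.4 ± 3.7 and 54.1 ± 0.533 FPKM with a log2 change of 0.10 (-0.04 to 0.24), and Aurka, the Aurora A kinase of the spindle poles, at 64.4 ± 1.95 and 66.1 ± 1.95 FPKM with one of 0.04 (-0.08 to 0.16).

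In the chromosomal passenger complex, which corrects attachments at the centromere and then moves to the central spindle, 1 of 4 genes rose. Of all genes tested, 16.9% were called higher. Incenp, the scaffold of the complex, was at 59.0, 58.0 and 62.3 FPKM in control and 71.6, 65.9 and 69.1 FPKM in knockout libraries. All knockout values were higher and the log2 change was 0.20 (SE 0.056, adjusted p = 0.0231), and leaving out control replicate 1, control replicate 2 or knockout replicate 1 ended the call (adjusted p = 0.101, 0.0625 and 0.0823). Birc5, survivin, which docks the complex on chromatin, was at 54.3, 54.2 and 53.7 FPKM in control and 58.6, 58.1 and 64.7 FPKM in knockout libraries. Its groups did not overlap, and replicate 3 set the upper end of the knockout range (log2 change 0.16, 95% interval 0.03 to 0.29, adjusted p = 0.0582). Aurkb, the kinase of the complex, and Cdca8, borealin, had log2 changes of 0.08 (-0.04 to 0.20) and 0.04 (-0.09 to 0.17), with overlapping groups at means of 42.2 and 44.7 FPKM and of 20.5 and 21.2 FPKM.

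Of the 4 spindle checkpoint genes, Mad2l1 and Ttk rose and Bub1 and Bub1b did not pass. Mad2l1, which holds Cdc20 in the checkpoint complex and had the lowest level of the 40 genes, was at 12.8, 13.4 and 12.1 FPKM in control and 16, 15.7 and 17.2 FPKM in knockout libraries. The gap between the groups exceeded the spread within either, and the log2 change was 0.33 (SE 0.061, adjusted p = 0.00385). Ttk, the Mps1 kinase that starts checkpoint signalling, was at 18.7, 20.7 and 18.3 FPKM against 21.8, 22.5 and 23.6 FPKM. Its groups did not overlap (log2 change 0.23, SE 0.063, adjusted p = 0.0228), although dropping control replicate 1, control replicate 3 or knockout replicate 2 ended the call (adjusted p = 0.095, 0.0722 and 0.0577). Bub1, a kinetochore kinase, was at 52.1 ± 2.2 and 52.9 ± 0.763 FPKM, a log2 change of 0.02 (95% interval -0.10 to 0.14). Bub1b, BubR1, was at 72.6, 73.1 and 70.2 FPKM in control and 71.9, 73.4 and 66.8 FPKM in knockout libraries, with overlapping groups and a log2 change of -0.03 (-0.15 to 0.10).

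At centromeres and kinetochores 1 of 7 genes rose, where 16.9% of all genes were called higher. The 4 subunits of the Ndc80 complex, the main microtubule anchor, had different changes. Spc24, a subunit of the inner end of that complex, was at 19.5, 19.2 and 20.4 FPKM in control and 24.2, 26.4 and 27.2 FPKM in knockout libraries. The groups were well apart, with a log2 change of 0.38 (SE 0.059, adjusted p = 0.00154). Its partner Spc25 was at 19.4, 19.8 and 17.8 FPKM in control and 18.7, 19.6 and 21.3 FPKM in knockout libraries, where only replicate 3 exceeded all controls (log2 change 0.06, 95% interval -0.09 to 0.21). Of the microtubule-binding subunits, Ndc80 was at 39.0, 46.2 and 38.6 FPKM against 44.7, 47.0 and 48.7 FPKM. Control replicate 2 overlapped the knockout range, and the log2 change of 0.18 had an adjusted p of 0.0944, or 0.0146 without that library. Nuf2 was the only gene of the 40 with all knockout libraries below all controls, at 20.6, 21 and 20.3 FPKM in control and 17.8, 18.5 and 19.2 FPKM in knockout libraries (log2 change -0.15, 95% interval -0.27 to -0.03, adjusted p = 0.0526). It was called lower by limma-voom (adjusted p = 0.0456) and without knockout replicate 3 (adjusted p = 0.0219). Whether the subunits differed from each other in their change was not tested. Cenpa, the histone H3 variant that marks centromeres, was at 34.5, 34.9 and 34.9 FPKM in control and 37.2, 36.8 and 38.4 FPKM in knockout libraries, separate groups with a log2 change of 0.10 (95% interval 0.00 to 0.21) that did not pass (adjusted p = 0.119).

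Kif23 carried the clearest change among 6 genes of the central spindle and cytokinesis, of which 3 rose. Kif23, the motor subunit of centralspindlin, was at 17.8, 17.7 and 16.8 FPKM in control and 21.3, 21.9 and 20.2 FPKM in knockout libraries. The groups did not overlap (log2 change 0.26, SE 0.055, adjusted p = 0.00677). Its partner in that complex, Racgap1, was at 37.3, 37.2 and 37.6 FPKM against 36.8, 38.0 and 36.3 FPKM. Knockout values lay on both sides of the controls, with a log2 change of -0.01 (95% interval -0.12 to 0.09), and the difference between the partners was not tested. Prc1, which cross-links antiparallel microtubules, was at 17.6, 18 and 17.3 FPKM in control and 20.1, 21.3 and 19.1 FPKM in knockout libraries. Anln, anillin, the scaffold of the contractile ring, was at 76.5, 82.5 and 74.3 FPKM against 86.0, 90.2 and 87.5 FPKM. Neither gene's groups overlapped, and each had a log2 change of 0.18 (SE 0.057) with adjusted p = 0.0358 for Prc1 and 0.043 for Anln. Both calls were fragile. Without 1 library, Prc1 was called in 1 of 6 fits (knockout replicate 3 left out) and its adjusted p reached 0.133, and Anln was called in 2 of 6 (control replicate 2 or knockout replicate 3 left out) and reached 0.159. Kif20a, the motor that carries the passenger complex to the central spindle, was at 46.0, 47.3 and 48.0 FPKM in control and 55.4, 55.1 and 49.1 FPKM in knockout libraries. Replicate 3 was only just above the controls, and the adjusted p was 0.0587 with it and 0.00607 without it. Kif20a shares 1271 exon bases with Cdc23 on the opposite strand, which had a mean of 8.44 FPKM. Ect2, the exchange factor that activates RhoA at the cleavage site, was at 54.0 ± 3.71 and 54.4 ± 0.708 FPKM, a log2 change of 0.01 (95% interval -0.12 to 0.15).

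None of the 4 genes of the anaphase switch passed, though 3 had separate groups. Cdc20, which activates the anaphase-promoting complex, was at 82.4, 76.8 and 88.0 FPKM in control and 96.9, 89.6 and 93.7 FPKM in knockout libraries (log2 change 0.18, adjusted p = 0.059, and 0.0375 without control replicate 3). Ube2c, the ubiquitin-conjugating enzyme of that complex, was at 90.9, 88.0 and 96.9 FPKM against 99.6, 99.7 and 116 FPKM (log2 change 0.19, adjusted p = 0.0784). Pttg1, securin, the inhibitor of separase, was at 31.7, 32.6 and 32.9 FPKM against 33.3, 33.2 and 38.0 FPKM (log2 change 0.10, adjusted p = 0.26). In the last 2 of these, knockout replicate 3 was the highest library and the other knockout libraries were just above the controls. Espl1, separase itself, went the other way in that library, with 15.1, 15.8 and 15.5 FPKM in control and 16.9, 16.9 and 12.9 FPKM in knockout libraries. The knockout values surrounded the controls, giving a log2 change of 0.00 (95% interval -0.22 to 0.22). Of the chromosome genes, Top2a, topoisomerase II alpha, which untangles sister DNA, had the highest level of the 40 genes at 208, 222 and 200 FPKM in control and 263, 272 and 242 FPKM in knockout libraries. Its groups did not overlap, and the mean rose from 210 ± 11 to 259 ± 15.3 FPKM (SD, n = 3 each), a log2 change of 0.30 (SE 0.067, adjusted p = 0.00984, and 0.0504 without control replicate 1).

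For several genes the call turned on knockout replicate 3. Mki67, the Ki-67 proliferation antigen that coats mitotic chromosomes, was at 97.5, 99.7 and 89.3 FPKM in control and 116, 119 and 93.0 FPKM in knockout libraries. Replicate 3 lay within the control range at 0.791 of the mean of the other knockout libraries, and the adjusted p was 0.162 with it and 0.00737 without it. Cenpf, a large protein of the outer kinetochore, was at 24, 26.4 and 22.3 FPKM against 30.2, 31.6 and 24.8 FPKM (adjusted p = 0.0838 with replicate 3 and 0.0116 without). Cenpe, a kinetochore motor that moves chromosomes to the spindle equator, was at 33.1, 37.6 and 31.3 FPKM against 41.5, 42.8 and 36.2 FPKM (adjusted p = 0.0614 with and 0.0217 without). In all 3 genes replicates 1 and 2 were above every control and replicate 3 was not. With Espl1 (0.763), Cenpf (0.804) and Cenpe (0.858), Mki67 made up the 4 genes with the lowest ratios of replicate 3 to the mean of the other knockout libraries. Their summed exon lengths were 8749 bases for Espl1, 10061 for Mki67, 15433 for Cenpf and 8620 for Cenpe. Ube2c (1.17), Pttg1 (1.14), Birc5 (1.11) and Spc25 (1.11) had the highest ratios, with lengths of 2600, 2000, 3402 and 3188 bases, but Mad2l1, at 8390 bases, also had a ratio of 1.09. Over all genes tested, the median deviation in replicate 3 was -0.07 (log2) for the 4534 genes with over 5000 exon bases and 0.07 for the 2012 genes with up to 2000. The 18 mitotic genes over 5000 bases had a median deviation of 0.02 in replicate 3 and of 0.05 and 0.12 in knockout replicates 1 and 2. With the trend on exon length removed from each library, an alternative chosen after seeing the data, 22 of the 40 genes were called higher, all 14 among them, where 19.9% of all genes were. The plot of median levels by library sets these values beside the other gene lists.

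**Figure D3:**
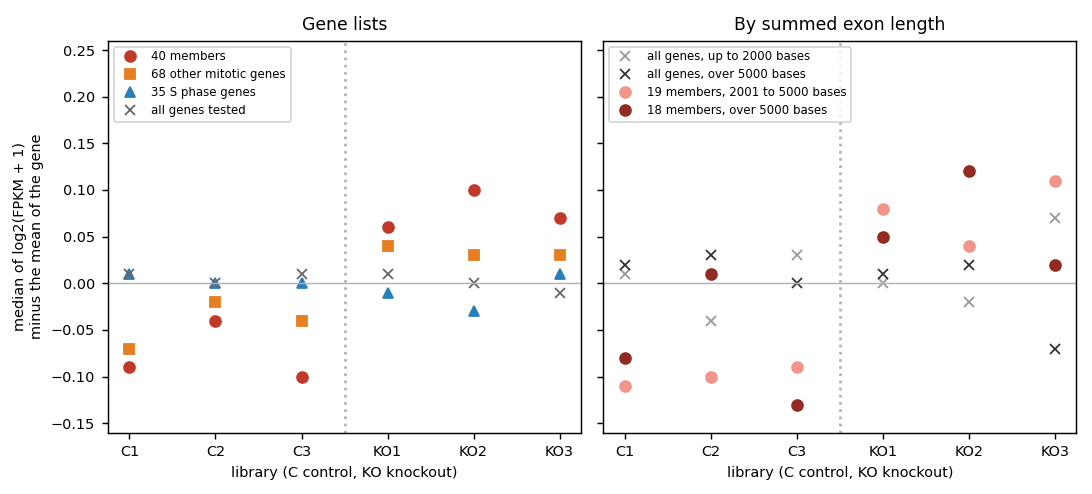
Median over a gene list of log2(FPKM + 1) minus each gene's mean over the 6 libraries (y axis) in each library (x axis), by list on the left and by summed exon length on the right. The 40 mitotic genes (members, red circles) run from -0.10 to -0.04 in control and from 0.06 to 0.10 in knockout libraries, while the S phase genes stay between -0.03 and 0.01.

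To set each gene beside its surroundings, the log2 change was compared with the median of its neighbourhood, taken as 20 tested genes to its left and 20 to its right on the chromosome. Ckap2l stood out more in this view, since its neighbours had a median of -0.13, and its change beyond them was 0.83 (adjusted p = 3.95e-05). Mad2l1 was the opposite case, because its neighbours on chromosome 6 had a median of 0.19, which left 0.14 (adjusted p = 0.0957). Nuf2 lay among genes with a median of -0.19, and its own change beyond them was 0.04 (adjusted p = 0.672). After this centring 15 of the 40 genes were called higher, where 13.3% of all genes were, and 10 of them were among the 14. Besides Mad2l1, the calls of Ccna2, Prc1 and Anln were lost (adjusted p = 0.108, 0.322 and 0.264). Kif11 (0.28, adjusted p = 0.00322), Kif20a (0.28, 0.00551), Cenpa (0.24, 0.00564), Cenpf (0.40, 0.0113) and Kif4 (0.20, 0.0161) were gained, all with neighbours whose median was -0.12 or lower. The median over the 40 genes was 0.14 after centring.

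**Figure D4:**
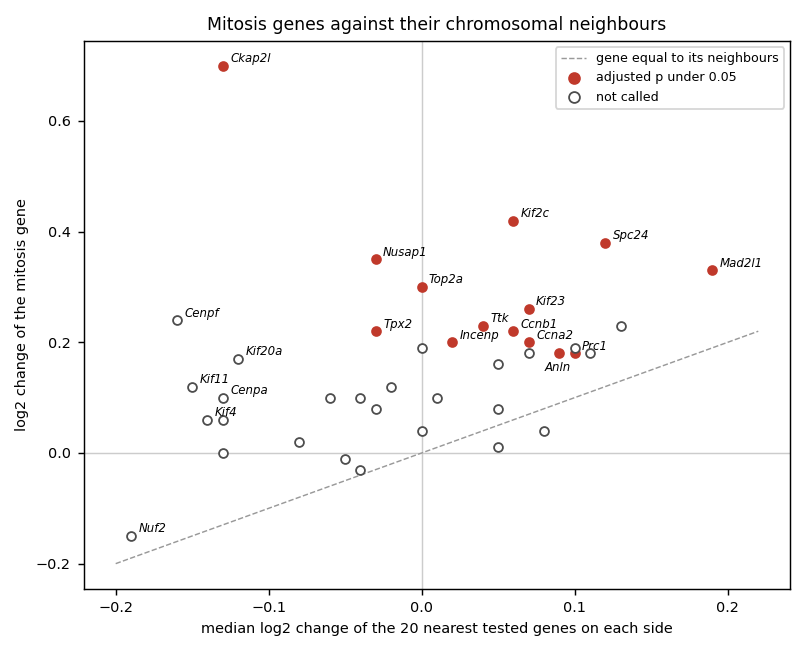
Log2 change of each of the 40 genes (y axis) against the median log2 change of 20 tested neighbours to either side (x axis). Filled points passed an adjusted p of 0.05, and points above the dashed line changed more than their neighbours, as Ckap2l did at 0.70 against -0.13, while Nuf2 lay near the line.

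Mitotic promoters often carry a CHR element (cell cycle genes homology region), which binds the MuvB core of the DREAM and MYB complexes, with CCAAT boxes upstream that bind NF-Y. RefSeq promoter windows of GRCm38.p6, from 250 bases before to 50 after the annotated start, were found for 34 of the 40 genes and for 27025 genes in all. No window was found for Ccna2, Kif20a, Tpx2, Aurkb, Spc24 and Incenp. The following lines show the 120 bases before the RefSeq start, 5′ to 3′ on the gene's strand, for genes across the range of change: Ckap2l and Top2a, which rose, Cdc20 and Kif11, which had separate groups without passing, and Cdk1 and Espl1, whose groups overlapped. Capitals mark matches to the CHR (TTTGAA or TTCGAA, or TTCAAA on the other strand) and to the CCAAT box (CCAAT, or ATTGG on the other strand).
Ckap2l (chr2:129297213-129297332, minus strand): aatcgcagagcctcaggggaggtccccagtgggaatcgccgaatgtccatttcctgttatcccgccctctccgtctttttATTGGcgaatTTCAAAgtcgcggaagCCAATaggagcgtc
Top2a (chr11:99024190-99024309, minus strand): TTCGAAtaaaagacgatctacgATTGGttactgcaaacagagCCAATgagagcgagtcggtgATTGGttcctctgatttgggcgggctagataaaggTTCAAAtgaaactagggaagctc
Cdc20 (chr4:118437344-118437463, minus strand): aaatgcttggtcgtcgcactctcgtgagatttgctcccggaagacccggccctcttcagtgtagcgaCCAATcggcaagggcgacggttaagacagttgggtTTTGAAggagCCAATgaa
Kif11 (chr19:37376262-37376381, plus strand): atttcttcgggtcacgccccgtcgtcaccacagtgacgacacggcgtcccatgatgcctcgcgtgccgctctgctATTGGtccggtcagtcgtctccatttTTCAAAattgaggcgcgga
Cdk1 (chr10:69352913-69353032, minus strand): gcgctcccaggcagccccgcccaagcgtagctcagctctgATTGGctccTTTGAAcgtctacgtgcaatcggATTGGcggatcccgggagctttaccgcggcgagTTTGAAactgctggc
Espl1 (chr15:102296173-102296292, plus strand): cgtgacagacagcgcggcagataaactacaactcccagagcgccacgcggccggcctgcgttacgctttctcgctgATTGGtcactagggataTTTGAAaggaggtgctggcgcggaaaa

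All 6 lines hold a CHR match within 40 bases of the start and at least 1 CCAAT box, whether or not the gene changed. These lines are examples and do not stand for all windows. Kif2c, Nusap1 and Mad2l1, which rose more than Top2a, had no CCAAT box, and of them only Kif2c had a CHR match, at -103 bases from the start. The Kif2c window with that match begins at chr4:117178723, inside the gene, whose upstream end in GENCODE is at 117182639. Which start these cells use was not tested. Counted on both strands over whole windows, the CHR letters were in 27 of 34 genes (79.4%) against 21.7% of all promoters, and the CCAAT box was in 26 (76.5%) against 41.1%. Both were in 24 genes (70.6%) against 8.61% of all promoters. A CHR match between 40 bases before the start and the end of the window was in 25 genes (73.5%) against 5.48%. By call, such a match was in 6 of the 10 genes called higher and in 19 of the 24 not called. Of the genes called higher, 7 of 10 with a window had the CHR letters, as did 20 of the 24 that were not called. Neither match was found in the windows of Nusap1, Mad2l1, Birc5, Pttg1 and Nuf2, which include genes that rose and genes that did not pass. A match describes the letters only.

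**Figure D5:**
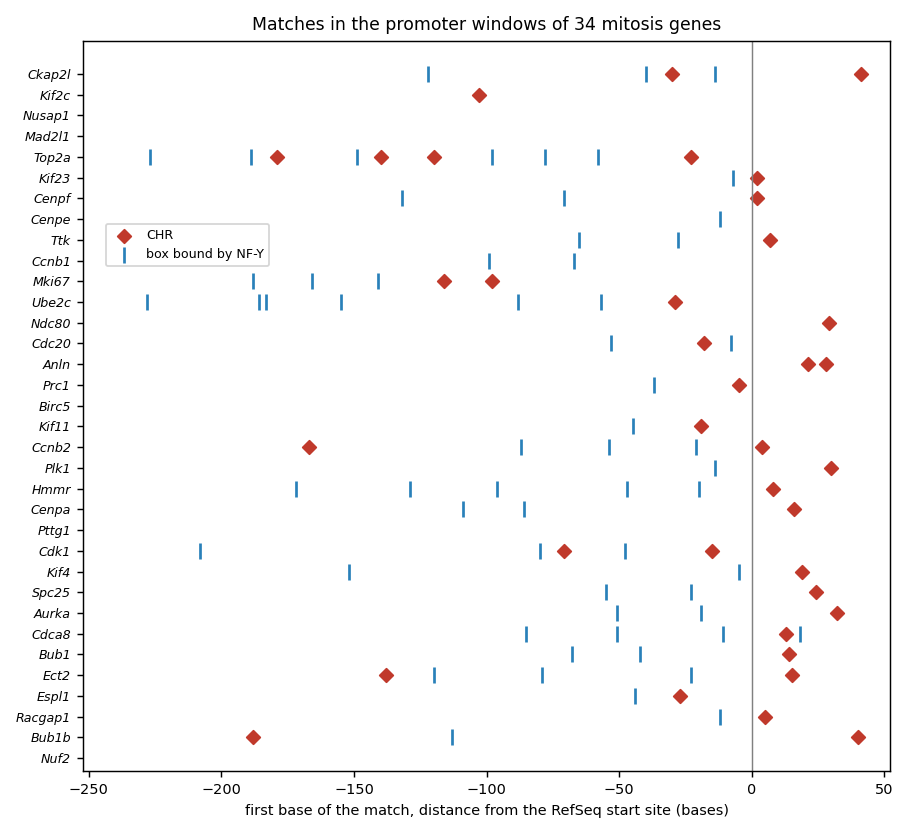
Position of CHR matches (red diamonds) and CCAAT boxes (blue bars, the box bound by NF-Y) in the promoter windows of 34 genes (rows, ordered by log2 change), in bases from the RefSeq start (x axis). Where a gene had matches in several windows, as Ect2 and Prc1 did, only the window with the lowest coordinate is drawn. CHR matches gather near the start, and 5 genes have no match of either kind.

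Related genes were counted in the same fit. Of 68 other mitotic genes, all tested, 22 were called higher (32.4%, against 16.9% of all genes) and 3 lower (against 18.7%), with a median log2 change of 0.08. Cdca3, which triggers the destruction of the Cdk1 inhibitor Wee1, rose from 19.7 ± 2.17 to 27.8 ± 1.67 FPKM (SD, n = 3 each), a log2 change of 0.48 (adjusted p = 0.00274). Sgo2a, a protector of centromeric cohesion, rose by a log2 change of 0.43 (adjusted p = 0.00159), and Cenpp, a protein of the inner kinetochore, by 0.37 (adjusted p = 0.0143). Haspin, the histone H3 kinase that recruits the passenger complex, fell from 11.1 ± 0.611 to 8.64 ± 0.433 FPKM, a log2 change of -0.33 (adjusted p = 0.00429). Kif14, a motor of cytokinesis, and Cdca2, which targets a phosphatase to chromatin, were called lower as well (log2 changes of -0.31 and -0.22, adjusted p = 0.0356 and 0.0377). Their neighbours had medians of -0.25 and -0.19, and neither passed after centring (adjusted p = 0.694 and 0.773). Cenpp did not pass after centring (adjusted p = 0.0508). Leaving out control replicate 1 ended the calls of Cenpp, Kif14 and Cdca2. The list then held 10 of 68 higher, where 10.6% of all genes were, and 1 lower, where 1358 of 11171 genes were.

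Of 16 genes of sister chromatid cohesion and chromosome condensation, 1 was called higher (6.25%, against 16.9% of all genes) and 1 lower (against 18.7%). Ncapd2, a condensin subunit, rose from 27.4 ± 0.309 to 37.6 ± 2.5 FPKM (log2 change 0.44, adjusted p = 0.000721), and Pds5a, a cohesin regulator, fell from 13.2 ± 0.584 to 7.67 ± 0.575 FPKM (log2 change -0.71, adjusted p = 9.28e-05). The anaphase-promoting complex, with 16 of 17 genes tested, had 3 higher (18.8%, close to the 16.9% of all genes) and 1 lower (against 18.7%). Ube2s, which extends its ubiquitin chains, rose from 30.3 ± 3.06 to 40.9 ± 2.29 FPKM (log2 change 0.42, adjusted p = 0.00394). Its co-activator Fzr1 and its inhibitor Fbxo5 were called higher (log2 changes of 0.27 and 0.23, adjusted p = 0.0377 and 0.0281), and Anapc1, its largest subunit, fell from 32.7 ± 1.09 to 25.1 ± 2.88 FPKM (log2 change -0.38, adjusted p = 0.00801). The calls of Fzr1 and Fbxo5 were lost without control replicate 1 and without control replicate 2. Each of these fits left 1 gene higher, where 10.6% and 13.2% of all genes were. The call of Fzr1 was also lost after centring (adjusted p = 0.11).

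Of 25 regulators that switch mitotic genes on or off, 9 were called higher (36%), against 16.9% of all genes, and 4 were called lower, where 18.7% of all genes were. Cdkn1a, the Cdk inhibitor p21, rose from 4.08 ± 0.218 to 6.82 ± 0.783 FPKM (log2 change 0.62, adjusted p = 0.000753). The RNA of Trp53, whose protein can activate Cdkn1a, rose from 11.1 ± 0.369 to 14.0 ± 0.66 FPKM (log2 change 0.32, adjusted p = 0.00353). Neither p53 protein nor a link between these changes was tested. Rbbp4, a subunit of the MuvB core, rose as well (log2 change 0.31, adjusted p = 0.00291), and Lin9 of the same core fell (log2 change -0.22, adjusted p = 0.0381). E2f4, the E2F of the DREAM complex, fell from 41.6 ± 1.81 to 31.7 ± 1.17 FPKM (log2 change -0.38, adjusted p = 0.00105), and the retinoblastoma gene Rb1 fell from 3.55 ± 0.3 to 2.58 ± 0.0629 FPKM (log2 change -0.35, adjusted p = 0.00635). Foxm1 and Mybl2, activators of G2 and mitotic genes that are named here after their values were seen, did not pass (log2 changes of 0.24 and 0.10, adjusted p = 0.0565 and 0.2). Foxm1 was at 33.3, 31.6 and 33.7 FPKM in control and 42.5, 41.5 and 33.8 FPKM in knockout libraries, with replicate 3 next to the controls. Lin9 and Rbbp4 did not pass after centring (adjusted p = 0.377 and 0.0578). Lin9 was also lost without control replicate 1. In that fit 4 of the 25 were called higher, where 10.6% of all genes were, and 2 lower, where 1358 of 11171 genes were.

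DNA replication genes, which mark S phase, had as many genes called lower as higher. Of 35 tested (of 36), 6 were higher (17.1%, against 16.9% of all genes) and 6 lower (against 18.7%), with a median log2 change of 0.00. Orc1, of the origin recognition complex, rose from 6.08 ± 0.307 to 8.2 ± 0.451 FPKM (log2 change 0.38, adjusted p = 0.00243). Uhrf1, which maintains DNA methylation at replication, and Mcm10, which helps fire origins, rose by log2 changes of 0.31 and 0.25 (adjusted p = 0.00501 and 0.00591). Mcm5, of the replicative helicase, fell from 73.9 ± 3.54 to 53.4 ± 2.14 FPKM (log2 change -0.46, adjusted p = 0.000473). Gins3, a helicase cofactor, and Ung, which removes uracil from DNA, fell by 0.32 and 0.25 on the log2 scale (adjusted p = 0.0224 and 0.048). Whether the mitotic and the S phase genes differed in their change was not tested. Uhrf1, Gins3 and Ung did not pass after centring (adjusted p = 0.0534, 0.568 and 0.153). Mcm5 had neighbours with a median of -0.28, and its change beyond them was -0.19 (adjusted p = 0.0453). Gins3 and Ung were lost without control replicate 1. In that fit 3 of the 35 were higher, where 10.6% of all genes were, and 2 lower, where 1358 of 11171 genes were.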

How the data were processed

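RNA was extracted with Trizol and sequenced by RNA-seq in 3 control and 3 Carmil3 knockout libraries of 4T1 cells. The authors deposited 1 table of FPKM values per gene and library. TopHat2 2.0.12, HTSeq 0.6.0, CASAVA and Bowtie were among the tools used on mm10, per the submitters' processing notes, which give no roles, annotation release or strand setting. The unit was read from the values: low values of a gene are whole multiples of a step set by exon length, and 91.9 to 92.2% of values up to 500 reads came out whole within 0.02. Reads recovered this way were used only for depth and for limma-voom.

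Gene symbols, exon lengths and positions came from GENCODE M21 (23577 of 23644 identifiers matched). limma 3.58.1 in R 4.3.3 was fitted to log2(FPKM + 1) over genes that reached 1 FPKM in 3 or more of the 6 libraries, with eBayes trend and robust, and p-values were adjusted over all 11171 genes. Fold changes on this scale understate low genes. The fit was tested on simulated data. All 40 genes passed the filter and are named, with values in every library for those called or with groups that do not overlap. Of each related list, up to 3 called genes per direction with the largest change and a higher mean of at least 2 FPKM are named. The 40 genes and all lists were chosen with earlier results of these data known. Alternatives changed the pseudocount, filter, scaling, moderation, fold threshold, replicate block, libraries, read counts, neighbour centring and exon length. FPKM values are scaled within each library, so a change is relative to the other RNA.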

Additional observations from a re-analysis of the deposited data

How the results depend on the processing

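Over 18 settings beside the reported one, none of the 14 called genes turned its direction. In all 14 every knockout library was above every control library, so many settings could not have turned it. These are the changes of pseudocount, filter, moderation, fold threshold and replicate block and the fits with a library left out. Of the genes that did not pass, 6 changed sign in at least 1 setting: Nuf2 (to 0.04), Racgap1 (0.04), Bub1b (0.01), Cdca8 (-0.03) and Ect2 (-0.03) after neighbour centring, and Bub1 (-0.01) without control replicate 3. The median log2 change of the 40 genes stayed between 0.14 and 0.18, and the count of genes with all knockout above all control libraries was 22, or 18 after quantile normalization. Ckap2l, Kif2c, Spc24, Nusap1, Kif23, Tpx2 and Ccnb1 passed in all settings except the test against a 1.5-fold change, 7 of the 14 lost their call in at least 1 other, and 12 of the 26 that did not pass did so in at least 1. Against a 1.5-fold change, 0 of the 40, 118 of all genes higher and 193 lower were called. With 1 library left out, 8 to 18 of the 40 were higher and 0 to 1 lower, over 1182 to 2041 genes higher and 1358 to 2218 lower in all, with the low ends without control replicate 1 and the high ends without knockout replicate 3. With exon length removed 22 of the 40 were higher (against 19.9% of all genes). With limma-voom 19 were higher (against 18.4%) and 1, Nuf2, lower (against 20.1%). With the replicate block 18 were higher (against 17.0%). Without a filter 11 were, where only 6.5% of the 23644 genes then tested were called higher. Quantile normalization ended the calls of Top2a (adjusted p = 0.0687), Ccna2 (0.0531) and Anln (0.112). Ttk (0.0573), Prc1 (0.0721) and Anln (0.0815) lost theirs without a filter, as did Anln (0.0571) with eBayes without trend and robust, and the cause of these losses was not tested. Same-numbered libraries had correlations of deviations of -0.0615, 0.149 and 0.0981, so the numbers were not taken to pair them, and the libraries numbered 2 and 3, but not those numbered 1, correlated best with their own number. Each gene had at least 878 reads in each library.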
